A study of Mus musculus with 12 samples.

Results

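The 40 genes described here encode the machinery of mitosis and the spindle: cyclins and kinases, the spindle checkpoint, kinetochore proteins, kinesins, spindle assembly factors and proteins of cytokinesis. They were chosen by gene symbol from a list drawn up for their function, and all 40 were found among the 16106 genes of the deposited table. Earlier results of these data were known when the list was drawn up. RNA was sequenced in 12 libraries of neural stem and progenitor cells (NSPCs), grown as neurospheres, which are floating spheres of dividing cells, from the cerebral cortex of C57BL/6 mouse embryos at day 14.5. Cells at passage 3 were kept for 24 hours with 10 μM of pravastatin or with PBS as vehicle, and the 4 groups of 3 libraries were male pravastatin, male vehicle, female pravastatin and female vehicle. The animals carried no transgene or deletion named in the labels, and the pravastatin and vehicle libraries of 1 number within a sex were taken as 1 culture, giving 6 cultures, although the labels do not state that they share an embryo. The study asked how a statin alters gene expression in these cells, and the comparison of pravastatin with vehicle was made in males, in females and over both.

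Pravastatin is a hydrophilic statin, which blocks HMG-CoA reductase and thereby the pathway to cholesterol and isoprenoids. In dividing cells most of the genes described here are transcribed late in the cycle, in G2 and mitosis, and are silent in resting cells, so that their summed mRNA is widely read as a measure of how much of a culture is cycling. Cyclin B with CDK1 drives entry into mitosis, the kinetochore couples chromosomes to spindle microtubules, the checkpoint delays anaphase until all are attached, and the anaphase-promoting complex (APC/C) then marks cyclin B and securin for destruction. In the embryonic cortex the same genes are active in radial glia and intermediate progenitors and are shut off in neurons. In bulk RNA fewer cycling cells and less of such RNA per cycling cell cannot be told apart.

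Sequencing gave 13353619 to 18422845 reads per library in the genes of the table. Values are normalized reads, that is reads scaled by the authors to an effective library size, and 1 read was worth 0.0523 to 0.0760. All 8 markers of neural stem cells and radial glia looked for were above 1 in every library, whereas none of 6 microglial and none of 5 erythroid markers was among the genes of the table, and the endothelial markers summed to at most 4.63. Female cultures 2 and 3 differed from the remaining 8 libraries, both with pravastatin and with vehicle. The astrocyte filament gene Gfap was at 69.3 to 507 in those 4 and at 3.96 to 8.31 in the other 8, and the oligodendrocyte markers summed to 314 to 785 in those 4, against 92.4 to 152 in the other 8. The difference was not in glial markers alone. The neuronal genes Dcx (12.6 to 22.5, against 1.45 to 3.495) and Tubb3 were higher in those 4 without overlap, and Rbfox3, Syt1 and Gap43 were not. Neuronal markers summed to 117 to 184, against 152 to 247. Of the stem cell markers Sox2, Pax6, Hes5 and Prom1 were higher in those 4 without overlap, and Nes was lower. Comparisons that rest on these libraries are given also without them, which leaves females with culture 1 alone. The labels mark the 6 vehicle libraries as re-analysed from another series and do not say whether libraries of both treatments were made at the same time, so preparation and treatment cannot be told apart.

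Promoters of late cell cycle genes often hold a cell cycle homology region (CHR), bound by the DREAM and MuvB complexes, and CCAAT boxes, bound by NF-Y. RefSeq promoter windows of the GRCm38.p6 assembly, from 250 bases before to 50 after the start of transcription, were matched for 33 of the 40 genes. The letters TTTGAA on either strand were found for 25 of these 33 genes (75.8%, in any window of the gene) and for 20.2% of all 27025 genes with windows of this length. Within the last 100 bases of the window they were found for 23 of 33 (69.7%), against 5.7% of all genes. The letters CCAAT on either strand were present in 25 of 33 (75.8%), against 41.1%, and both motifs in 22 of 33 (66.7%), against 8.0%. A match describes the letters only. The motifs can share only an end letter, and no match was found for TTTGAA in Ccnb1, Plk4, Birc5, Bub1, Mad2l1, Cenpe, Nuf2 and Nusap1.

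The promoters of the 4 genes with the highest mean of normalized reads, not corrected for length, among these 25 are shown, since they carry both motifs that recur in the set. Each runs from base -220 to the 30th transcribed base, 5′ to 3′ on the strand of the gene. Capitals mark TTTGAA (or TTCAAA, the same motif on the other strand) and CCAAT (or ATTGG on the other strand).
Top2a, chr11:99024160-99024409, minus strand: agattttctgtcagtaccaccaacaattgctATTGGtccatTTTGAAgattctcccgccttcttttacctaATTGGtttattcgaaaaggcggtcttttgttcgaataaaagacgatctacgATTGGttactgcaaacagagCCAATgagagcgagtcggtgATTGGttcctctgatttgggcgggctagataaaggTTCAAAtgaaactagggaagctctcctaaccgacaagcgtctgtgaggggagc
Mki67, chr7:135716350-135716599, minus strand: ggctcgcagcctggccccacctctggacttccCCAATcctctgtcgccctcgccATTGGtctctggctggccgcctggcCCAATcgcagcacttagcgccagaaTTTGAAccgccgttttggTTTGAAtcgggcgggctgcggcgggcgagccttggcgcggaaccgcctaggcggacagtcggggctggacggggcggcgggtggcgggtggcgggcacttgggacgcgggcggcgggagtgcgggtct
Kif11, chr19:37376162-37376411, plus strand: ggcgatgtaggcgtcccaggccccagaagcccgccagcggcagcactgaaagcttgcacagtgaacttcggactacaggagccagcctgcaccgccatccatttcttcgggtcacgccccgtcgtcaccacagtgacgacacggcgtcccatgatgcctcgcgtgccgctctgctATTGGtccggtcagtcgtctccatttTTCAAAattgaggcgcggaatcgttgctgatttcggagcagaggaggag
Cenpf, chr1:189688057-189688306, minus strand: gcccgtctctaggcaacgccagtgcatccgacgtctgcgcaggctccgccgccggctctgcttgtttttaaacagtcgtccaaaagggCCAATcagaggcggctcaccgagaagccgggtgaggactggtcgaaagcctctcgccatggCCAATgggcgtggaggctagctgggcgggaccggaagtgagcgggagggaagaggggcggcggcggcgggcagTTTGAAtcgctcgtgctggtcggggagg
Top2a holds TTTGAA letters at base -179 and, on the other strand, at base -23. In Mki67 they lie at bases -116 and -98, in Kif11 at base -19 on the other strand, and in Cenpf at base 3, just inside the transcript.

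In male NSPCs the mitosis and spindle genes were lower with pravastatin than with vehicle. Of the 40, 28 were called lower and 0 higher at an adjusted p under 0.05 (limma, Benjamini-Hochberg over 15221 genes), when 4.36% of all genes tested were called lower. All 40 estimates were negative, with a median log2 difference of -0.31 and a range of -0.51 (Nuf2) to -0.10 (Kif23), while the median of all genes was within 0.01 of 0. No member changed by more than 1.5-fold. The 3 pravastatin values all lay below the 3 vehicle values for 35 of 40 members, and for 17.8% of all genes tested. With each culture as a block, which pairs its pravastatin and vehicle libraries, 35 of 40 were called lower, when 8.78% of all genes were. The count changed with the library left out. It was 8 without male vehicle 2, 10 without male vehicle 1 or without male pravastatin 2, and 20 without male vehicle 3. Without male pravastatin 3 or 1 it was 28 and 30. The share of all genes called lower was smaller too, at 0.815% with male vehicle 2 left out, 1.11% with male vehicle 1, 1.83% with male pravastatin 2 and 1.88% with male vehicle 3. It was 5.77% and 3.56% with male pravastatin 3 or 1 left out. All 40 estimates stayed negative in each of these fits, with medians of -0.35 to -0.29. Bub1b, Ccnb1, Cdc20, Kif20a, Kif2c and Nuf2 were called whichever of the 6 male libraries was left out. Astrocyte markers summed to 794, 945 and 886 in the male pravastatin libraries, against 581, 642 and 661 in the male vehicle libraries, with Aldoc at 449 to 565 in male pravastatin and at 312 to 339 in male vehicle. Aldh1l1 was higher in each male culture too, at 163, 169 and 149.7 in male pravastatin, against 141, 123 and 110.5 in male vehicle. Gfap, Aqp4, S100b and Slc1a2 did not differ in 1 direction over the 3 male cultures, Aqp4 being at 15.04, 27.04 and 25.2 in male pravastatin, against 14.97, 25.5 and 25.9 in male vehicle. The part of these markers in the result was not tested.

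**Figure D1:**
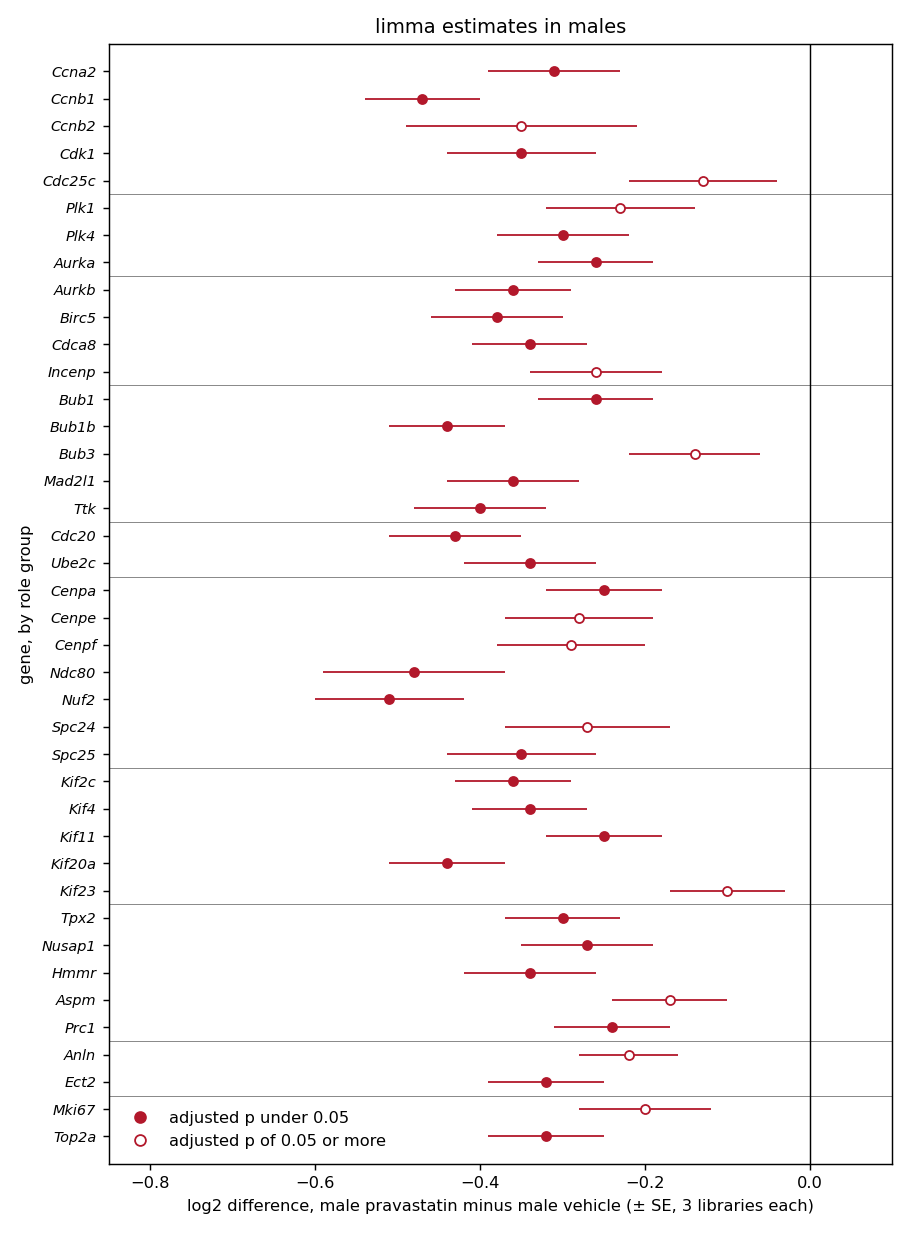
limma estimates for the 40 genes in males, as the log2 difference of male pravastatin minus male vehicle (x axis, points, with bars of 1 SE, 3 libraries each), with genes grouped by role down the y axis. All 40 points lie left of 0, and the 28 filled points are the genes with an adjusted p under 0.05.

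Over both sexes, with sex as a covariate, 0 of the 40 genes were called (limma, 4 at an unadjusted p under 0.05, as were 16.8% of all genes), when 0.311% of all 15093 genes tested were called lower. The edgeR and DESeq2 tests on recovered reads also called 0. All 40 estimates were nonetheless negative, with a median of -0.20 against -0.01 for all genes. Without female pravastatin 2 the median was -0.08 with 36 negative, and without female vehicle 1 it was -0.11 with 38 negative. With each culture as a block, 20 of 40 were called lower and 0 higher, when 8.13% of all genes were called lower. That count depended on the cultures kept: it was 37 without female culture 3, and 14, 10 and 12 without male culture 1, 2 or 3, with the block in each. Female culture 3 was the only culture in which most members were higher with pravastatin. Over all genes 11.4% were called lower without female culture 3, and 4.8%, 3.19% and 3.25% without male culture 1, 2 or 3.

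In females 0 of 40 were called (limma, 0 at an unadjusted p under 0.05, and 0 by edgeR or DESeq2), when 0% of 15185 genes were called lower. With the block the count was 0 as well (9 at an unadjusted p under 0.05, as were 14.4% of all genes), when 0.184% of all genes were called lower. Estimates were negative for 34 members, with a median of -0.10, and turned positive in the median (0.17 and 0.11) without female pravastatin 2 or female vehicle 1. For no member did the 3 female pravastatin values all lie below the 3 female vehicle values, which 2.9% of all genes did. That count could not be otherwise, since both libraries of female culture 2 lay below the other 10 for all 40 members. It therefore says nothing on the response within cultures. The difference between the sexes in response, tested as an interaction, was not called for any of the 40 (0% of 15765 genes in either direction, limma, 0 members at an unadjusted p under 0.05 and 17 with the block, when 7.26% of all genes were, and 0 called by edgeR or DESeq2). All 40 interaction estimates were negative, the male change being the lower, with a median of -0.20, but without female vehicle 2 the median was 0.00 and 20 were negative. Without female cultures 2 and 3 it was -0.12 and 34 were negative, again with 0 called (0 at an unadjusted p under 0.05), in a limma fit where the single female libraries are assumed to vary like the male ones. The call in males and its absence in females were thus not shown to differ.

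Cyclins, CDK1 and its phosphatase made up the first group of 5 genes, of which 3 were called lower in males and 4 over both sexes with the block. In the sentences on single genes, values are normalized reads and stand in the order of cultures 1, 2 and 3. Ccnb1 (chromosome 13, 100778650 to 100786570), which encodes cyclin B1, the activating partner of CDK1 at mitotic entry, had 40.7, 44.6 and 44.2 normalized reads in male pravastatin libraries, against 61.1, 60.2 and 58.9 in male vehicle libraries, and 45.9, 30.6 and 42.1 in female pravastatin libraries, against 51.5, 36.2 and 46.9 in female vehicle libraries. Cyclin B1 mRNA was lower with pravastatin in all 6 cultures, and the male groups did not overlap (log2 difference -0.47 ± 0.07 SE, limma adjusted p = 0.002). Over both sexes its difference was -0.33 ± 0.11 SE, with a limma adjusted p of 0.156 and of 0.00269 with the block. Ccna2, the cyclin A of S phase and G2, had 208, 235 and 263 in male pravastatin, against 289, 285 and 294 in male vehicle, and 234, 125 and 200.3 in female pravastatin, against 268, 134 and 187 in female vehicle. Cdk1, the mitotic kinase itself, had 136, 148 and 174 in male pravastatin, against 204, 194 and 186 in male vehicle, and 151, 77.1 and 128 in female pravastatin, against 183, 93.9 and 128 in female vehicle. Both were called lower in males (log2 difference -0.31 ± 0.08 SE, limma adjusted p = 0.0396 for Ccna2 and log2 difference -0.35 ± 0.09 SE, limma adjusted p = 0.0275 for Cdk1), and in female culture 3 Ccna2 was 0.10 higher on the log2 scale with pravastatin, while Cdk1 differed by -0.01. Ccnb2, a second B-type cyclin, was at 22.0 to 53.6 over the 12 libraries and was called lower only with the block, in males (limma adjusted p = 0.133, and adjusted p = 0.0202 with the block) and over both sexes (adjusted p = 0.406, and adjusted p = 0.0285 with the block). Cdc25c, a phosphatase that activates CDK1, was at 16.4 to 39.8 and was called in neither male fit (limma adjusted p of 0.349, and 0.315 with the block). Pseudogenes of Ccnb1, Ccnb2 and Kif4 are annotated in the mouse genome, so the assignment of reads to these 3 genes is less certain.

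The Polo-like kinases and Aurora A act at centrosomes. Aurka (chromosome 2, 172356190 to 172370535), which encodes Aurora A, a kinase of centrosome maturation and spindle assembly, had 57.4, 59.3 and 64.2 in male pravastatin, against 72.4, 74.3 and 70.02 in male vehicle, and 58.5, 43.2 and 52.2 in female pravastatin, against 71.9, 46.9 and 61.9 in female vehicle. Plk4, the kinase that starts centriole duplication, had 55.9, 56.1 and 58.96 in male pravastatin, against 77.04, 68.4 and 65.997 in male vehicle, and 60.9, 31.4 and 51.3 in female pravastatin, against 73.3, 30.2 and 43.2 in female vehicle. Both were called lower in males (log2 difference -0.26 ± 0.07 SE, limma adjusted p = 0.0437 for Aurka and log2 difference -0.30 ± 0.08 SE, limma adjusted p = 0.033 for Plk4), with no overlap between the male groups. Aurka was lower with pravastatin in each of the 6 cultures, by 0.24 on the log2 scale in female culture 3, the lowest difference of any member there, and Plk4 was 0.25 higher in that culture. Plk1, which acts from mitotic entry to cytokinesis, ran from 26.9 to 62.7 over the 12 libraries and was not called in males (log2 difference -0.23, limma adjusted p = 0.11), but was with the block (adjusted p = 0.0376).

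The chromosomal passenger complex corrects faulty attachments at centromeres and then moves to the midzone. All 4 of its genes were called lower over both sexes with the block and 3 in males without it. Aurkb, its kinase, had 61.6, 66.4 and 67.8 in male pravastatin, against 86.98, 81.7 and 82.7 in male vehicle, and 72.5, 34.2 and 62.7 in female pravastatin, against 83.5, 40.5 and 59.9 in female vehicle. Birc5, which encodes survivin, had 38.98, 42.01 and 43.99 in male pravastatin, against 56.6, 52.5 and 54.4 in male vehicle, and 44.9, 19.5 and 36.8 in female pravastatin, against 54.3, 23.1 and 37.6 in female vehicle. Cdca8 (chromosome 4, 124918465 to 124939311), which encodes borealin, had 74.5, 70.9 and 78.2 in male pravastatin, against 92.8, 97.1 and 93.3 in male vehicle, and 75.5, 39.8 and 66.5 in female pravastatin, against 93.8, 50.6 and 67.7 in female vehicle. The male groups did not overlap for any of these, and the male differences were close to each other (log2 difference -0.36 ± 0.07 SE, limma adjusted p = 0.00913 for Aurkb, log2 difference -0.38 ± 0.08 SE, limma adjusted p = 0.0103 for Birc5 and log2 difference -0.34 ± 0.07 SE, limma adjusted p = 0.0104 for Cdca8). Incenp, the scaffold of the complex, had 106, 91.7 and 90.6 in male pravastatin, against 121, 115 and 109 in male vehicle, and 105, 53.9 and 77.9 in female pravastatin, against 113, 59.5 and 79.6 in female vehicle. It was lower in all 6 cultures and was called in males only with the block (log2 difference -0.26 ± 0.08 SE, limma adjusted p = 0.0567, and adjusted p = 0.014 with the block).

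The spindle checkpoint group held 5 genes, of which 4 were called lower in males. Bub1b (chromosome 2, 118598211 to 118641591), which encodes BubR1, a part of the inhibitor of the APC/C, had 90.7, 94.2 and 97.9 in male pravastatin, against 132, 127 and 125 in male vehicle, and 97.3, 59.3 and 92.9 in female pravastatin, against 121, 65.3 and 91.3 in female vehicle. It had the smallest adjusted p of the 40 genes in males (log2 difference -0.44 ± 0.07 SE, limma adjusted p = 0.00154), and its female culture 3 values differed by 0.02 on the log2 scale. Bub1, a kinase that recruits checkpoint proteins to kinetochores, had 65.1, 69.8 and 74.6 in male pravastatin, against 84.7, 83.4 and 82.7 in male vehicle, and 67.6, 33.7 and 58.2 in female pravastatin, against 82.3, 36.2 and 54.3 in female vehicle. Mad2l1, which encodes Mad2, had 58.5, 62.9 and 62.7 in male pravastatin, against 76.9, 85.8 and 74.5 in male vehicle, and 60.7, 29.1 and 48.6 in female pravastatin, against 71.2, 29.2 and 40.3 in female vehicle. Mad2l1 was at its lowest in female culture 2, at 29.1 with pravastatin and 29.2 with vehicle. Ttk, which encodes Mps1, the kinase at the head of the checkpoint, had 37.5, 38.2 and 43.3 in male pravastatin, against 51.3, 54.5 and 51.7 in male vehicle, and 41.2, 19.3 and 35.8 in female pravastatin, against 46.4, 21.01 and 28.3 in female vehicle. Bub1, Mad2l1 and Ttk were called in males (log2 difference -0.26 ± 0.07 SE, limma adjusted p = 0.043 for Bub1, log2 difference -0.36 ± 0.08 SE, limma adjusted p = 0.0134 for Mad2l1 and log2 difference -0.40 ± 0.08 SE, limma adjusted p = 0.0103 for Ttk) and were each higher with pravastatin in female culture 3, by 0.10, 0.27 and 0.33 on the log2 scale. Bub3, an adaptor of Bub1 and BubR1, had 132, 141 and 158 in male pravastatin, against 163, 150.1 and 160.3 in male vehicle, and 146, 126 and 130.2 in female pravastatin, against 150.2, 128 and 137 in female vehicle. Bub3 varied least, with overlapping groups in both sexes, and was not called in males (log2 difference -0.14 ± 0.08 SE, limma adjusted p = 0.275, and adjusted p = 0.19 with the block).

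Of the APC/C partners, both genes were called lower in males, and both over both sexes with the block. Cdc20, the activator of the APC/C that the checkpoint holds back, had 89.6, 94.2 and 102 in male pravastatin, against 135, 117 and 132 in male vehicle, and 102, 55.1 and 90.2 in female pravastatin, against 131, 64.7 and 91.6 in female vehicle. Ube2c (chromosome 2, 164769898 to 164778822), the ubiquitin-conjugating enzyme of the APC/C, had 67.5, 69.7 and 79.1 in male pravastatin, against 95.9, 90.5 and 88.3 in male vehicle, and 77.1, 44.9 and 58.6 in female pravastatin, against 86.3, 52.2 and 64.2 in female vehicle. Each was lower with pravastatin in all 6 cultures, and the male differences were log2 difference -0.43 ± 0.08 SE, limma adjusted p = 0.00615 for Cdc20 and log2 difference -0.34 ± 0.08 SE, limma adjusted p = 0.0187 for Ube2c.

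Among the 7 centromere and kinetochore genes, 4 were called lower in males and 6 with the block. Ndc80 (chromosome 17, 71496100 to 71526857), which encodes the microtubule-binding arm of the outer kinetochore, had 30.8, 37.4 and 42.4 in male pravastatin, against 52.6, 54.7 and 46.5 in male vehicle, and 39.01, 19.3 and 33.3 in female pravastatin, against 48.2, 26.5 and 37.5 in female vehicle. Nuf2, its direct partner, had 49.5, 58.1 and 60.9 in male pravastatin, against 82.1, 82.7 and 75.6 in male vehicle, and 61.1, 30.8 and 50.97 in female pravastatin, against 71.4, 37.2 and 53.5 in female vehicle. These 2 genes had the lowest male estimates of all 40 (log2 difference -0.48 ± 0.11 SE, limma adjusted p = 0.0212 for Ndc80 and log2 difference -0.51 ± 0.09 SE, limma adjusted p = 0.00375 for Nuf2) and were lower with pravastatin in all 6 cultures, Ndc80 by 0.76 and Nuf2 by 0.72 on the log2 scale in male culture 1. Spc25, of the opposite end of the same complex, had 48.8, 52.97 and 58.8 in male pravastatin, against 64.3, 72.4 and 67.5 in male vehicle, and 53.5, 26.2 and 44.4 in female pravastatin, against 58.2, 30.9 and 38.5 in female vehicle. Cenpa, the histone H3 variant that marks centromeres, had 88.4, 79.5 and 87.8 in male pravastatin, against 106, 99.5 and 98.6 in male vehicle, and 94.2, 53.2 and 75.4 in female pravastatin, against 101, 56.8 and 77.5 in female vehicle. Spc25 and Cenpa were also called in males (log2 difference -0.35 ± 0.09 SE, limma adjusted p = 0.0267 for Spc25 and log2 difference -0.25 ± 0.07 SE, limma adjusted p = 0.0476 for Cenpa), and Spc25 was 0.21 higher in female culture 3. Cenpf, a large kinetochore and nuclear envelope protein, had 204, 193 and 173 in male pravastatin, against 245, 251 and 202 in male vehicle, and 152, 91.7 and 172 in female pravastatin, against 190.4, 117 and 141 in female vehicle. Its male groups overlapped and its call came only with the block (log2 difference -0.29 ± 0.09 SE, limma adjusted p = 0.0701, and adjusted p = 0.00604 with the block), as did that of Cenpe, a kinetochore kinesin at 56.3 to 162 (limma adjusted p of 0.0588, and 0.008 with the block). Spc24, the partner of Spc25, was at 17.4 to 45.2 and was called in neither male fit (adjusted p = 0.0577 with the block).

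Kinesins are motors that move along or take apart microtubules, and 4 of the 5 were called lower in males. Kif20a, a motor of the midzone that is needed for cytokinesis, had 87.99, 87.8 and 92.1 in male pravastatin, against 128, 122 and 115 in male vehicle, and 95.2, 50.8 and 84.1 in female pravastatin, against 110.3, 69.4 and 83.01 in female vehicle. Kif2c, a depolymerase that corrects attachments, had 63.7, 66.3 and 66.2 in male pravastatin, against 88.3, 82.7 and 81.4 in male vehicle, and 69.6, 42.9 and 65.4 in female pravastatin, against 77.3, 48.6 and 63.7 in female vehicle. Both were called lower in males (log2 difference -0.44 ± 0.07 SE, limma adjusted p = 0.00194 for Kif20a and log2 difference -0.36 ± 0.07 SE, limma adjusted p = 0.00758 for Kif2c), with no overlap between the male groups. Kif11, the motor that pushes spindle poles apart, had 193, 209 and 215 in male pravastatin, against 242, 246 and 248 in male vehicle, and 199.97, 109 and 180.2 in female pravastatin, against 218, 121 and 159 in female vehicle. Kif4, a chromosome-bound motor, had 90.8, 93.6 and 104 in male pravastatin, against 123, 127 and 116 in male vehicle, and 101, 53.3 and 87.9 in female pravastatin, against 112, 51.8 and 84.8 in female vehicle. Kif11 and Kif4 were called in males (log2 difference -0.25 ± 0.07 SE, limma adjusted p = 0.0325 for Kif11 and log2 difference -0.34 ± 0.07 SE, limma adjusted p = 0.0141 for Kif4), and all 5 kinesins were higher with pravastatin in female culture 3, with a median of 0.05. Kif23, of the centralspindlin complex, had the smallest male difference of the 40 (log2 difference -0.10, limma adjusted p = 0.328) and ran from 37.8 to 93.9 over the 12 libraries.

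Of 5 spindle assembly and microtubule-binding genes, 4 were called lower in males. Tpx2, which activates Aurora A on the spindle, had 161, 169.5 and 185 in male pravastatin, against 213, 217 and 203 in male vehicle, and 167, 103 and 157 in female pravastatin, against 188, 115 and 155 in female vehicle. Prc1 (chromosome 7, 80294450 to 80316259), which bundles antiparallel microtubules of the midzone, had 157, 171 and 173 in male pravastatin, against 196, 202 and 195 in male vehicle, and 164, 106 and 154 in female pravastatin, against 187, 122 and 154 in female vehicle. Tpx2 and Prc1 were called in males (log2 difference -0.30 ± 0.07 SE, limma adjusted p = 0.0217 for Tpx2 and log2 difference -0.24 ± 0.07 SE, limma adjusted p = 0.0378 for Prc1) and over both sexes with the block (adjusted p of 0.022 for Tpx2 and 0.0145 for Prc1). Hmmr, a spindle pole protein, had 83.96, 94.4 and 97.9 in male pravastatin, against 111, 125 and 113 in male vehicle, and 84.9, 53.3 and 88.9 in female pravastatin, against 103, 59.4 and 74.1 in female vehicle. Nusap1, which binds microtubules near chromosomes, had 104, 116 and 122 in male pravastatin, against 141, 143 and 128 in male vehicle, and 119, 78.9 and 109.8 in female pravastatin, against 119, 82.9 and 104 in female vehicle. Both were called in males (log2 difference -0.34 ± 0.08 SE, limma adjusted p = 0.0217 for Hmmr and log2 difference -0.27 ± 0.08 SE, limma adjusted p = 0.0494 for Nusap1), and Hmmr was 0.26 higher in female culture 3. Aspm, a spindle pole protein whose loss reduces brain size, ran from 108 to 208 and was called in neither male fit (limma adjusted p of 0.148, and 0.0741 with the block).

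Anln and Ect2 act in the contractile ring, and neither was called over both sexes in either fit. Ect2 (chromosome 3, 27097222 to 27153878), the exchange factor that activates RhoA at the cell equator, had 68.9, 66.7 and 68.9 in male pravastatin, against 86.2, 87.5 and 81.4 in male vehicle, and 71.3, 35.7 and 61.3 in female pravastatin, against 78.5, 38.2 and 52.4 in female vehicle. Anln, the ring scaffold anillin, had 75.8, 77.7 and 76.3 in male pravastatin, against 89.997, 90.3 and 87.4 in male vehicle, and 76.3, 38.9 and 65.3 in female pravastatin, against 87.2, 38.7 and 50.2 in female vehicle. Ect2 was called in males (log2 difference -0.32 ± 0.07 SE, limma adjusted p = 0.0134), and Anln only with the block (log2 difference -0.22 ± 0.06 SE, limma adjusted p = 0.0518, and adjusted p = 0.0366 with the block), although its male groups did not overlap either. Both were higher with pravastatin in female culture 3, by 0.23 for Ect2 and by 0.38 for Anln, the highest difference of any member there.

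Top2a and Mki67 act on mitotic chromosomes. Per kilobase of exon, vehicle means of the 40 genes were highest for Top2a, Cdc20, Ccna2 and Mki67, at 68.7, 59.9, 59.5 and 50.2 normalized reads. Top2a (chromosome 11, 98992943 to 99024189), the topoisomerase that untangles sister DNA, had 562, 604 and 611 in male pravastatin, against 760.03, 758 and 701 in male vehicle, and 580.5, 298 and 526 in female pravastatin, against 664, 338 and 495 in female vehicle. Mki67 (chromosome 7, 135689784 to 135716361), which encodes the proliferation antigen Ki-67, had 571, 517 and 522 in male pravastatin, against 652, 630.5 and 570.1 in male vehicle, and 455, 243 and 438 in female pravastatin, against 537, 273 and 369.7 in female vehicle. Top2a was called in males (log2 difference -0.32 ± 0.07 SE, limma adjusted p = 0.0152) and over both sexes with the block (adjusted p = 0.0262). Mki67 overlapped by 1 value in males, where male pravastatin 1 lay just above male vehicle 3, and was called only with the block (log2 difference -0.20 ± 0.08 SE, limma adjusted p = 0.112, and adjusted p = 0.0411 with the block).

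**Figure D2:**
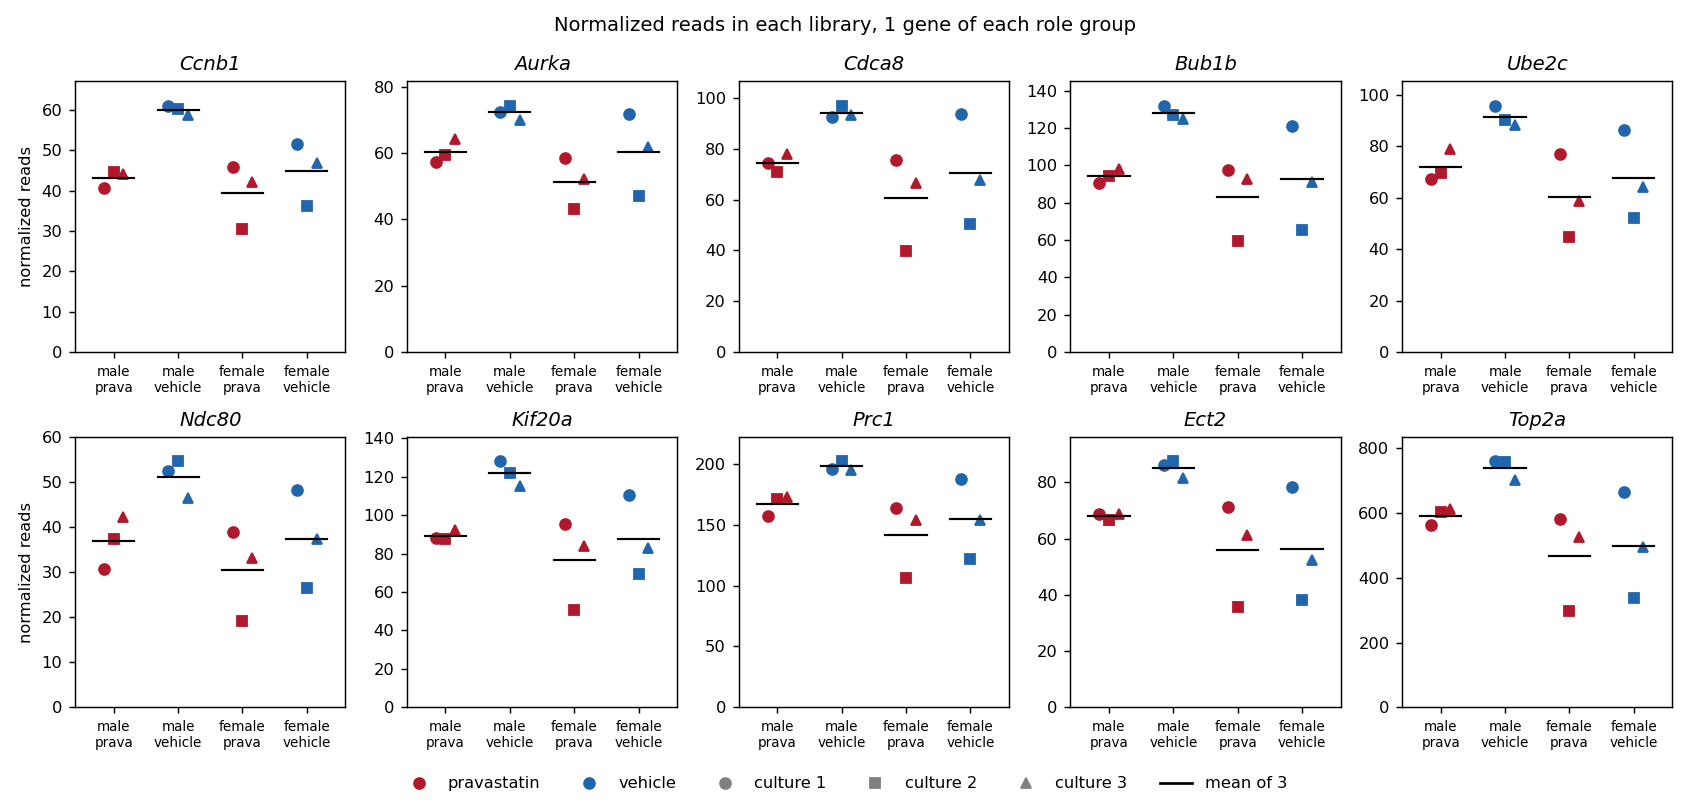
Normalized reads in each library (y axis from 0, points, marked by culture) for the gene of each role group with the smallest p over both sexes, in male pravastatin, male vehicle, female pravastatin and female vehicle libraries, with bars at the mean of 3. In males the 3 pravastatin points lie below the 3 vehicle points in every panel, and in females the cultures differ more than the treatments do.

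Taken culture by culture, the set was lower with pravastatin in 5 of the 6 cultures and higher in 1. In males all 40 members were lower in cultures 1 and 3 and 39 in culture 2, with median log2 differences of -0.41, -0.32 and -0.19 in cultures 1, 2 and 3. In females 38 were lower in culture 1 (median -0.19) and 37 in culture 2 (median -0.17), whereas 27 were higher and 13 lower in culture 3 (median 0.06). Over all 15093 genes the medians were within 0.01 of 0, and 49.6% to 52.1% of genes were lower in each culture. Summed over the 40 genes, pravastatin over vehicle was 0.77, 0.80 and 0.88 in male cultures 1, 2 and 3 and 0.87, 0.89 and 1.07 in female cultures 1, 2 and 3.

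Fewer members kept 1 direction throughout. Lower in all 6 cultures were 13 of 40 (10.6% of all genes): Ccnb1, Cdk1, Aurka, Birc5, Cdca8, Incenp, Bub3, Cdc20, Ube2c, Cenpa, Ndc80, Nuf2 and Prc1. In female culture 3 the difference was under 0.02 for Cdk1 and Prc1, and was -0.16 for Ccnb1, -0.13 for Ube2c and -0.17 for Ndc80. Lower in the 5 cultures other than female culture 3 were 35 of 40, against 15.9% of all genes. Lower in those 5 and higher in female culture 3 were 22 of 40, against 5.29% of all genes. Female culture 3 was set apart because most members were higher there. An excess over all genes in these counts is therefore partly built in, and they are description only. Those highest in that culture were Anln, Ttk, Cenpe and Cenpf (0.38, 0.33, 0.31 and 0.29). In the same culture Gfap was at 69.3 with pravastatin, against 179 with vehicle, and Aqp4, a water channel of astrocytes, at 55.3 with pravastatin, against 106 with vehicle. Of the other astrocyte markers Aldh1l1, S100b and Gjb6 were lower with pravastatin there. Slc1a2 (239 against 215) and Aldoc (606 against 601) were higher. All astrocyte markers summed to 1171 with pravastatin, against 1337 with vehicle, and their part in the result was not tested.

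**Figure D3:**
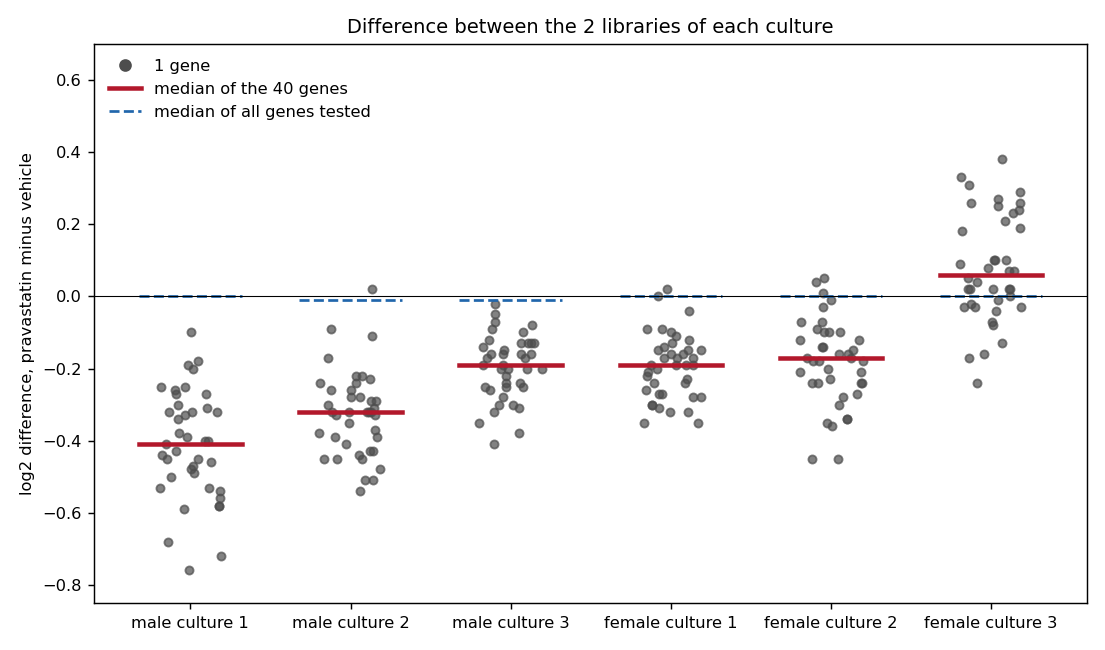
Log2 difference of pravastatin minus vehicle within each culture (y axis) for the 40 genes (points), with the median of the 40 (solid bar) and of all 15093 genes tested (dashed bar). The medians of the 40 are -0.41, -0.32 and -0.19 in male cultures 1, 2 and 3, -0.19 and -0.17 in female cultures 1 and 2, and 0.06 in female culture 3.

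With vehicle alone, the set was higher in males than in females, with a median log2 difference of 0.54 and estimates from 0.19 (Bub3) to 0.84 (Mad2l1), but 0 of 40 were called (limma, 25 at an unadjusted p under 0.05, as were 17.3% of all genes, adjusted p 0.287 to 0.346, and 0 called by edgeR or DESeq2), when 0.0254% of all genes were called higher. The male vehicle values all lay above the female vehicle values for 26 of 40 members, and for 10.4% of all genes. The female spread was wide: the 40 genes summed to 5825, 5769 and 5448 in male vehicle 1, 2 and 3, against 5203, 2865 and 3833 in female vehicle 1, 2 and 3. Without female vehicle 1, 35 members were called higher in males, when 13.8% of all genes were called higher and 15.4% lower, and what then remained on the female side were the vehicle libraries of cultures 2 and 3. Without female vehicle 2 the median was 0.32, with 0 called and 0 at an unadjusted p under 0.05. Without female cultures 2 and 3 it was 0.10, with 4 estimates negative, 0 called and 0 at an unadjusted p under 0.05 (limma, 1 female vehicle library, assumed to vary like the male ones).

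In the summed values cultures of females lay further apart than treatments did. Both libraries of female culture 2 lay below the other 10 for all 40 members, and for 14.8% of all genes. In the 4 libraries with Gfap above 50, a group picked from the data and so described without a test, the 40 genes summed to 2540.3 and 4104 with pravastatin, against 2865 and 3833 with vehicle, in female cultures 2 and 3. In the other 8 libraries they summed to 4496 to 4795 in male pravastatin, 5448 to 5825 in male vehicle, 4536 in female pravastatin 1 and 5203 in female vehicle 1. For 25 of 40 members all 4 libraries lay below all of the other 8, and for 10.9% of all genes. The ratio of the medians of the 4 and the 8 libraries ran from 0.52 for Mad2l1 to 0.86 for Bub3, with a median of 0.65. Anln, Ttk and Kif23 had ratios of 0.54, 0.55 and 0.56. Ccnb1, Nusap1, Kif2c and Prc1 had ratios of 0.80, 0.78, 0.76 and 0.76. Astrocyte markers summed to 1171 to 2212 in the 4 libraries, against 394 to 945 in the other 8, and their part was not tested.

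**Figure D4:**
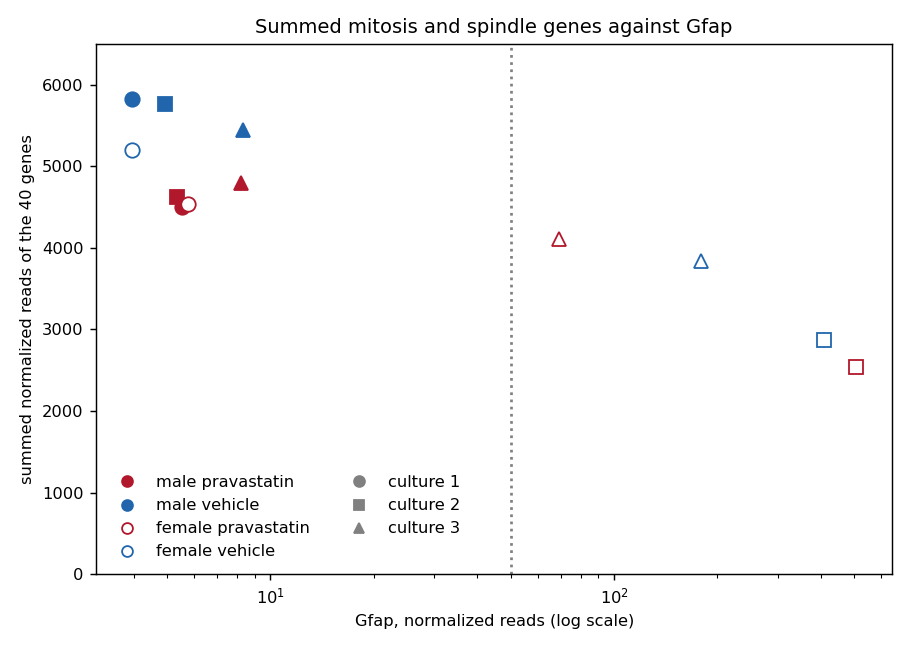
Summed normalized reads of the 40 genes (y axis, from 0) against normalized reads of Gfap (x axis, log scale) in the 12 libraries, by sex, treatment and culture, with a dotted line at a Gfap value of 50. The 4 libraries right of the line sum to 2540.3 to 4104, and the 8 left of it to 4496 to 5825.

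Without female cultures 2 and 3, 32 of 40 members were called lower over the other 4 cultures, when 8.26% of all genes were called lower, and 37 with the block, when 12.9% were. In females alone, without culture 3 and with the block, 5 were called lower, on 2 cultures, when 0.395% of all genes were. Culture 3 was the only culture with most members higher with pravastatin (27 of 40), so leaving it out favours lower calls. The count of 5 thus does not describe females as a group. Female culture 1 alone, with 1 library of each treatment, had a median difference of -0.19, with no test.

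**Figure D5:**
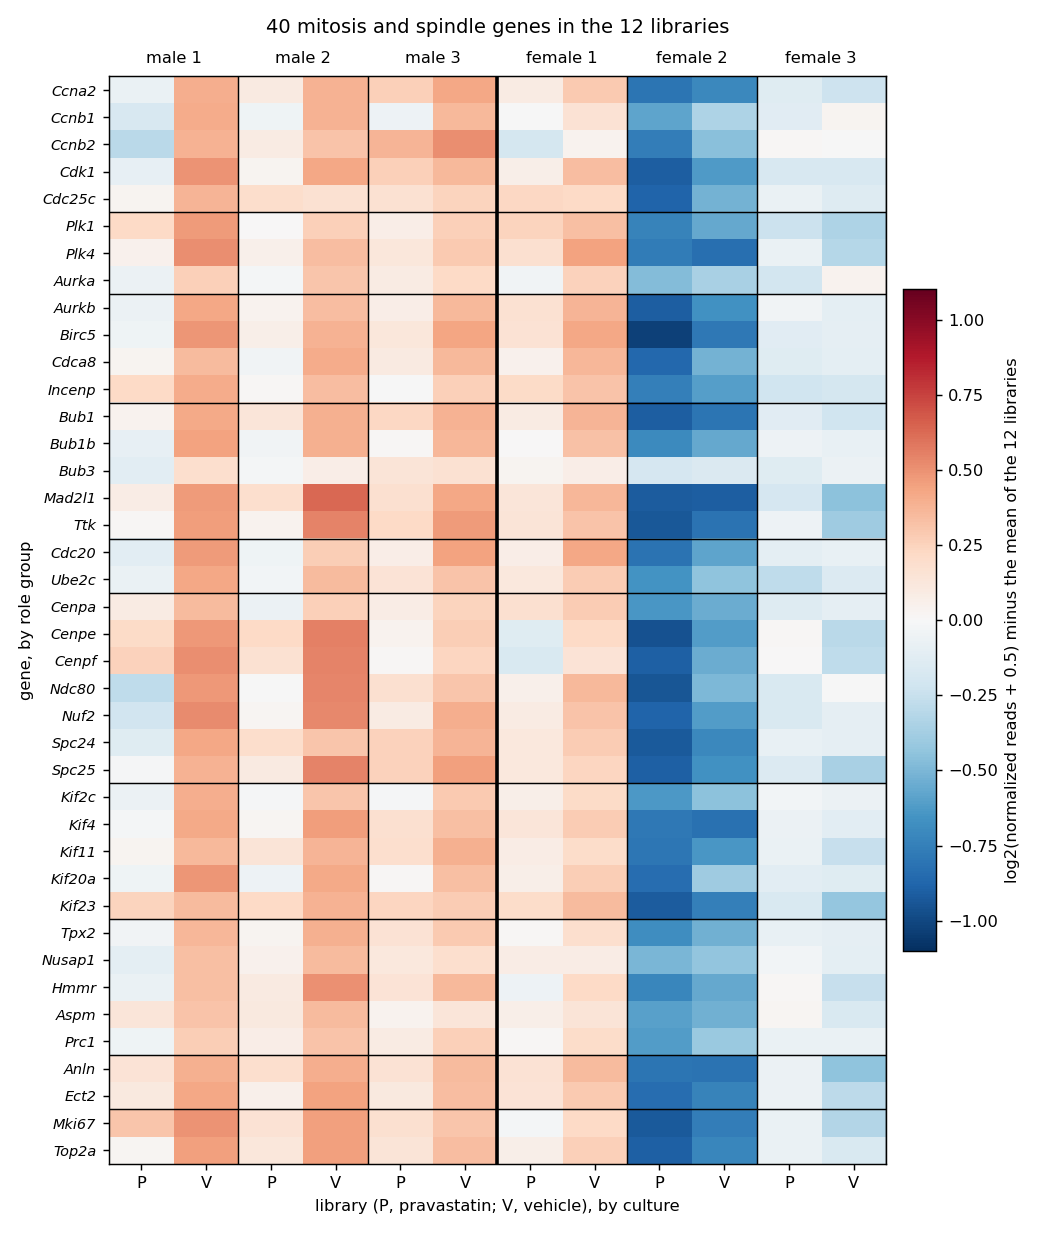
Log2(normalized reads + 0.5) of the 40 genes (rows, by role group) in the 12 libraries (columns, pravastatin left of vehicle in each culture), minus the mean of each gene. Both libraries of female culture 2 are the lowest for all 40 genes, and within each male culture the pravastatin column is paler than the vehicle column for most genes.

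Genes of neighbouring functions, from lists that hold none of the 40, gave more lower than higher calls in males. These lists too were chosen with earlier results of these data known. Of the 118 genes 30 were called lower and 3 higher, when 4.36% of all genes were called lower and 6.08% higher. Of 24 inner kinetochore and KMN network genes 7 were called lower and 0 higher (median -0.24, when 4.36% of all genes were called lower), among them Nsl1, of the Mis12 complex (log2 difference -0.56, limma adjusted p = 0.00279), and Cenpp and Cenpu, of the inner kinetochore (-0.64 and -0.56). Of 8 condensin genes, which compact chromosomes, 5 were lower and 1 higher: Smc4, a shared core subunit, was at -0.35, while Ncapg2, a condensin II subunit, was at 0.38 (limma adjusted p = 0.00415) and was higher in all 6 cultures. Of 14 cohesin and separase genes 2 were lower, the shugoshins Sgol1 and Sgol2a (-0.42 and -0.44). Of 16 APC/C genes only Fbxo5, the inhibitor Emi1, was called lower (-0.41, limma adjusted p = 0.0284).

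Among 12 kinases and phosphatase regulators of mitotic entry 5 were lower and 1 higher. Melk and Pbk, kinases of proliferating progenitors, were at -0.44 and -0.48, and Wee1, which restrains CDK1, at -0.28. Pkmyt1, the other kinase that restrains CDK1, was at 0.36 and was higher in all 6 cultures. Of 12 regulators of the DREAM, MMB and FOXM1 programme only Mybl2 was called lower (-0.40, limma adjusted p = 0.0272), and Foxm1 was at -0.17 (adjusted p = 0.215). Of 32 other spindle, centriole and midzone genes 9 were lower and 1 higher: Haus7, of the augmin complex, was at 0.54 in males and was the only one of the 118 genes of these lists called over both sexes without the block (0.49, limma adjusted p = 0.0281, higher in all 6 cultures), while Haus5 and Haus6 of the same complex were at -0.59 and -0.29 in males. Over both sexes the genes with the smallest p in the other lists, none called without the block, were Anapc7 and Anapc11 (-0.17 and -0.18), Smc4 and Ncaph2 (-0.23 and -0.17), Sgol2a and Rad21 (-0.28 and -0.10), Dsn1 and Zwint (-0.25 and 0.18), Ensa and Nek2 (0.10 and -0.25), and Rbbp4 and Lin52 (-0.13 and -0.46). With the block 29 of the 118 were called lower and 5 higher over both sexes, when 8.13% of all genes were called lower and 10.5% higher. Of these last 12 genes, all but Rad21, Ensa and Rbbp4 were called with it, Zwint being higher and the others lower, and Pkmyt1 and Ncapg2 were called higher (limma adjusted p of 0.000365 and 0.000524). In males the block gave 50 lower and 4 higher, against 30 and 3 without it. Over all genes the male shares were 8.78% lower and 10.1% higher with the block, and 4.36% and 6.08% without it.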

How the data were processed

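Total RNA was sequenced from 12 neurosphere libraries with a stranded kit. The signal values, deposited as normalized reads, were made by the authors, who merged technical replicates, aligned reads with TopHat2 2.1.1 (GRCm38), built transcripts with Cufflinks, counted with HTSeq and scaled by an effective library size. All values were whole reads within 0.001 read (100%). Fold changes, p-values and group means of the authors were not used. Depth was 13353619 to 18422845 reads per library.

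limma 3.58.1 (R 4.3.3, lmFit and eBayes with a trend) was run on log2(value + 0.5), which understates changes of low genes, for genes with values above 1 in 6 or more libraries (in 3 or more for single sexes), with Benjamini-Hochberg adjustment over all genes, and was tested on simulated data. The simulated reads held no differences between cultures or sexes, so that test does not cover the spread between cultures seen here. Calls needed an adjusted p under 0.05. edgeR 4.0.16 and DESeq2 1.42.0 were run on the recovered reads as alternatives (edgeR called 399 genes higher and 47 lower over both sexes), with other scalings, pseudocounts, filters and left-out libraries. Pravastatin and vehicle libraries of 1 number have sample codes with the same first letter and digit, so the blocked fit is given. Their residuals correlated at 0.871, 0.871 and 0.428 in females and 0.182, 0.179 and 0.303 in males. Female vehicle 3 correlated with female pravastatin 2 at 0.425, about as with female pravastatin 3. All other correlations between different numbers were negative. For female culture 3 the pairing thus rests on the sample codes. Named with all values are the genes with the smallest p over both sexes and with the highest mean in each role group, those called, and those with 1 sign in all 6 cultures. Mki67, and genes of neighbouring lists beyond those called over both sexes or the 2 with the smallest p there, are named after their values were seen. The members and lists were chosen with earlier results of these data known. Gene positions are from GENCODE vM21, and promoters from RefSeq (GRCm38.p6).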

Additional observations from a re-analysis of the deposited data

Results flagged for a closer look

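In each gene the 6 pravastatin values, the 6 vehicle values and the 6 within-culture differences were searched for a sample whose gap to the nearest other was large for the range (Dixon's test at 95%). Chance alone marks about 1 in 20 such sets of 6, and the 40 genes are not independent of each other. Of the 25 values marked, 20 were low values of 1 library, female pravastatin 2.

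In normalized reads, that library was at 30.6 for Ccnb1, 16.4 for Cdc25c, 31.4 for Plk4, 34.2 for Aurkb, 19.5 for Birc5 and 39.8 for Cdca8. Of the checkpoint and APC/C genes it was at 59.3 for Bub1b, 19.3 for Ttk and 55.1 for Cdc20. Among kinesins it was at 42.9 for Kif2c, 53.3 for Kif4, 109 for Kif11 and 50.8 for Kif20a. Among spindle and cytokinesis genes it was at 103 for Tpx2, 53.3 for Hmmr, 108 for Aspm, 106 for Prc1, 38.9 for Anln and 35.7 for Ect2, and Top2a was at 298. Gfap was at 507 in the same library, its highest value of the 12, and the part of that in the low values was not tested.

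The other 5 were within-culture log2 differences of pravastatin minus vehicle. In female culture 3 the difference stood above those of the other 5 cultures for Cenpe (0.31), Cenpf (0.29), Kif23 (0.26) and Mki67 (0.24). In male culture 1 that of Bub3 (-0.30) stood below the others.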

How the results depend on the processing

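Over both sexes the count of members called, 0, became 20 in limma with a replicate block and 21 in edgeR with a replicate block, 32 without female cultures 2 and 3, 37 without them and with a replicate block, and 37 without female culture 3 with a replicate block. In edgeR with the block 8.83% of all genes were called lower. Leaving out male culture 1, 2 or 3 with a replicate block, an alternative chosen after seeing the data, gave 14, 10 and 12, and leaving out single libraries 0 to 1. In males the count of 28 became 0 where a change above 1.5-fold was also asked for, and ran from 8 to 30 when single libraries were left out. It was 11 without male culture 2 with a replicate block, when 3.3% of all genes were called lower. In females 0 became 5 with a replicate block and without female culture 3, the only culture in which most members were higher with pravastatin. The replicate block alone left 0. For males against females with vehicle, 0 became 35 without female vehicle 1, and single libraries gave 0 to 35. The median log2 difference of the members ran from -0.30 to 0.17 in females and from -0.46 to 0.00 in the interaction when single libraries were left out, the female median turning positive at 0.17 without female pravastatin 2 and at 0.11 without female vehicle 1. For males against females with vehicle it was 0.54 and became 0.10 without female cultures 2 and 3, an alternative chosen after seeing the data, and 0.32 without female vehicle 2. Over both sexes and in males it stayed within the spread between cultures under every alternative run, at -0.08 without female pravastatin 2 over both sexes. The cause of these changes was not tested. With rescaling to library totals the median of all genes moved by under 0.1, to -0.08 in males. There 35 members were called, when 9.26% of all genes were called lower, against 4.36% without rescaling. Of the 28 male calls, 28 were also called with the block, 22 by edgeR and 28 by DESeq2. Without the block, with 3 libraries a group, differences of the size seen in females could not be told from the spread between cultures. The block takes out the level of each culture. With it 0 members were called in females as well, and most members went the other way in female culture 3.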
